A study of Mus musculus with 6 samples.

Results

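The genes described here are *Atf4*, the central transcription factor of the integrated stress response, and 9 genes known as its partners or effectors: *Atf5*, *Ddit3*, *Trib3*, *Chac1*, *Sesn2*, *Nupr1*, *Fgf21*, *Gdf15* and *Ddit4*. They were chosen by name, and all 10 were found among the 59485 genes of the table. RNA was extracted from the sciatic nerves of 3 control and 3 mutant mice at P4 and sequenced as poly-A+ libraries, 1 per animal. The labels give the controls as wild-type and the mutants as HtPA-Cre, Adar1fl/fl, R26R. The human tissue plasminogen promoter (HtPA) drives Cre in the neural crest (NC) and its derivatives, such as Schwann cells (SCs). There Cre removes the floxed part of *Adar*, which encodes the RNA-editing enzyme ADAR1, and R26R marks the same cells with YFP. Nerve cells of other origins keep intact alleles, and each value is a sum over all cell types of the nerve.

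Values are normalised read counts, that is, reads on a gene divided by a size factor per library. The libraries held 50938349 to 78250094 reads on genes, and a single read was worth 0.727 to 1.27 units. Two-sided tests used limma on log2(value + 1) for the 25802 genes whose mean reached 10 in at least 1 group. The threshold was that of the study's methods, an unadjusted p of 0.05 or less together with a 2-fold or larger change. Adjusted p-values follow Benjamini and Hochberg, over every gene tested. Fold changes given as log2 are on the log2(value + 1) scale, which understates the change of low genes. The targeted gene *Adar* (chr3:89715022-89753454, mm10) stood at 1602, 2066 and 1133 in controls 1 to 3 and at 11768, 9311 and 9773 in mutants 1 to 3, a rise of 2.72 log2 units (SE 0.20, adjusted p = 4.1e-05) that goes against its label. Since a gene has 1 value in the table, reads from inside and outside the floxed part cannot be told apart. Libraries are therefore called control-labelled or mutant-labelled, and directions follow the labels. Summed SC markers were 1164453 to 1541076 in the control-labelled and 76949 to 239073 in the mutant-labelled libraries, with 4 of 10 markers lower and 1 higher (*Gfap*, which passed the filter only through the mutant-labelled group), and *Sox10*, a defining SC marker, was present in every library. Sex-linked genes marked 2 control-labelled libraries and 1 mutant-labelled library as female, and the part of sex was not tested. In bulk nerve, fewer cells of a type and less RNA per cell cannot be told apart from the RNA values alone. For SCs, the study counted similar numbers in control and mutant sciatic nerves at P4 by electron microscopy.

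As background, the integrated stress response starts when stress-activated kinases phosphorylate the translation factor eIF2alpha. General protein synthesis then slows, while the *Atf4* mRNA, which carries small upstream reading frames, is translated more. ATF4 protein pairs with C/EBP and other bZIP factors at C/EBP-ATF elements of its target genes, which serve amino acid supply, redox balance and, if the stress lasts, cell death. FGF21 and GDF15 are secreted hormones through which stressed cells signal to other tissues. RNA levels measure neither the phosphorylation of eIF2alpha nor the amount of ATF4 protein.

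Of the 10 genes, 8 rose past the threshold and 0 fell, where 13.9% of all genes tested were higher, 10.4% lower and 24.2% changed in either direction by the same rule. edgeR and DESeq2 on the recovered reads also placed 8 of them higher and 0 lower. The median log2 fold change was 3.33 for the 10 genes and 0.03 for all genes tested. In 9 of the 10, every mutant-labelled value lay above every control-labelled value, as it did for 25.9% of all genes tested. The reverse held for 0 of the 10 and for 23.3% of all genes tested. *Fgf21* passed the filter on low values only through the mutant-labelled group, so its call was fixed in direction by the filter, and 7 of the other 9 rose. *Atf4* and *Ddit4* were the genes that stayed under a 2-fold change. All 10 had an adjusted p at or under 0.05, as did 35% of all genes tested. For a single gene, the smallest p of an exact two-sided permutation test of 3 against 3 libraries is 0.1.

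**Figure D1:**
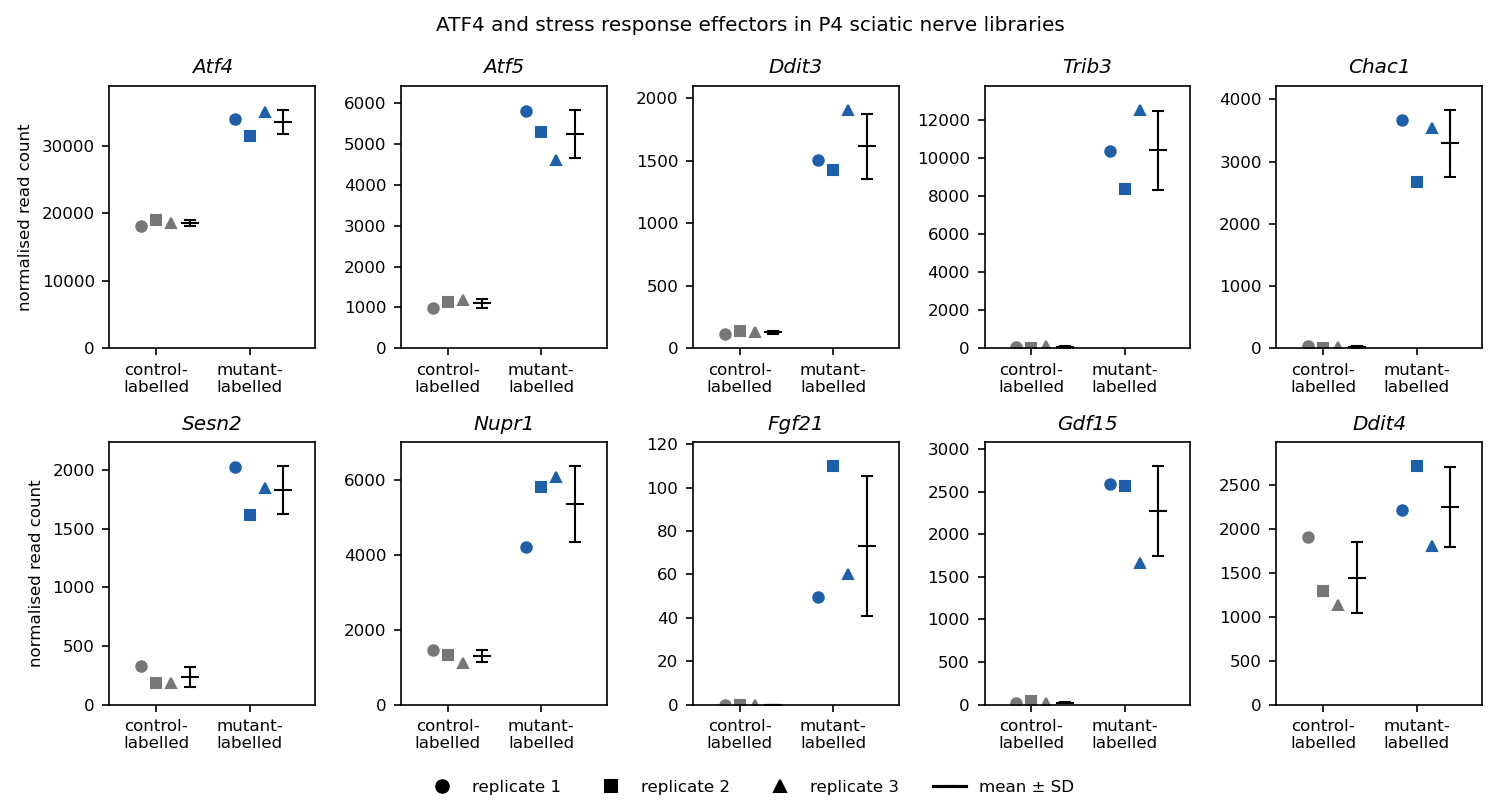
Normalised read count (linear axis from 0, a separate scale per gene) of each of the 10 genes in the 3 control-labelled (grey) and 3 mutant-labelled (blue) libraries, with replicates 1 to 3 as circle, square and triangle and the mean ± SD of each group as a bar. The groups are apart for 9 genes and overlap for *Ddit4*, where control 1 (1900) exceeds mutant 3 (1806).

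The 3 transcription factors, *Atf4*, *Atf5* and *Ddit3*, differed in the size of their change. *Atf4* (GSMG0013392, chr15:80255184-80257544, plus strand) had normalised read counts of 18082, 19036 and 18533 in controls 1 to 3 and 33953, 31479 and 35030 in mutants 1 to 3. The groups did not overlap, and the libraries within each group lay close together. The mutant-labelled mean was 1.81 times the control-labelled mean, a log2 fold change of 0.85 (SE 0.08, adjusted p = 0.000137), which does not reach 2-fold. Leaving out each library in turn gave 0.82 to 0.89. With all libraries rescaled to the same total it was 1.01 and passed the threshold, in a scaling where the median of all genes stood at 0.20.

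*Atf5* (GSMG0035874, chr7:44812256-44816658, minus strand), a bZIP factor whose mRNA is also translated under stress and which is known for the mitochondrial stress response, had 975, 1143 and 1171 in the control-labelled and 5806, 5293 and 4619 in the mutant-labelled libraries. All mutant-labelled values were higher, and *Atf5* rose by 2.25 log2 units (SE 0.12, adjusted p = 1.03e-05). *Ddit3* (GSMG0003652, chr10:127290793-127296288, plus strand) encodes CHOP, a C/EBP-family factor that partners ATF4 and is tied to cell death in lasting stress. It had 113, 136 and 133 in the control-labelled and 1508, 1426 and 1906 in the mutant-labelled libraries. The mutant-labelled mean was 12.7 times the control-labelled mean, a rise of 3.64 log2 units (SE 0.18, adjusted p = 5.47e-06), again with no overlap. Thus *Atf4* had by far the most reads of the 3 factors in every library, and the smallest relative change.

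The sequence context of the effectors was read from RefSeq promoter windows (GRCm38.p6, the build of mm10), which span 250 bases before to 50 bases after a start site. All 10 genes matched, with 12 windows. The letters TGATGCAA, the core of a C/EBP-ATF element, were sought on both strands, as were TGATGNAA, which includes the first, and TGATGCAA with 1 mismatch, which includes it too. These forms were chosen with the windows already seen. TGATGCAA was present in the windows of *Chac1*, *Fgf21* and *Nupr1* and in 0.895% of all 32851 windows, and TGATGNAA was present in *Trib3* as well and in 3.97% of all windows. With 1 mismatch allowed, *Gdf15* and *Sesn2* also matched, but 16.9% of all windows did. No form was found in the windows of *Atf4*, *Atf5*, *Ddit3* or *Ddit4*, which says only that these letters are not in these windows. The exact and TGATGNAA matches of the genes are shown because they are the letters these genes share. Each sequence is read along the gene's own strand, with the match in capitals, and all 4 matches run along the opposite strand, so the capitals are the reverse complement of the motif. *Chac1* is taken from chr2:119351039-119351066 (plus strand, match at -193 from the start site), *Fgf21* from chr7:45615612-45615639 (minus strand, at -139), *Nupr1* from chr7:126625563-126625590 (minus strand, at -110) and *Trib3* from chr2:152344029-152344056 (minus strand, at 14, inside the transcribed part).
Chac1: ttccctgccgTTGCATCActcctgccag
Fgf21: gacccccccaTTGCATCAtccgtccagg
Nupr1: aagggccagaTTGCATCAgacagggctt
Trib3: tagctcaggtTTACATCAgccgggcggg

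Among the intracellular effectors, *Trib3* and *Chac1* changed most. *Trib3* (GSMG0023702, chr2:152337425-152344060, minus strand) encodes a pseudokinase that restrains ATF4 and AKT. It had 82.2, 36.9 and 120 in the control-labelled and 10367, 8396 and 12559 in the mutant-labelled libraries. The 2 groups were far apart, with a ratio of means of 131 and a rise of 7.15 log2 units (SE 0.38, adjusted p = 8.31e-06). *Chac1* (GSMG0021626, chr2:119351242-119354381, plus strand) encodes an enzyme that degrades glutathione, the main thiol antioxidant of the cell. It had 28.9, 11.3 and 22.8 in the control-labelled and 3667, 2679 and 3540 in the mutant-labelled libraries. Its ratio of means was 157, a rise of 7.31 log2 units (SE 0.33, adjusted p = 4.28e-06). By log2 fold change, *Chac1* stood at rank 43 and *Trib3* at rank 47 among the 3580 genes that rose. With each library left out in turn, *Chac1* ranged from 6.94 to 7.57 and *Trib3* from 6.68 to 7.52.

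*Sesn2* (GSMG0028450, chr4:132492034-132510501, minus strand) encodes Sestrin 2, a leucine sensor that restrains mTORC1. It had 329.8, 185.2 and 183.7 in the control-labelled and 2027, 1622 and 1853 in the mutant-labelled libraries, with control 1 above the other controls but far below every mutant-labelled value. It rose by 3.02 log2 units (SE 0.24, adjusted p = 5.02e-05). *Nupr1* (GSMG0036657, chr7:126623246-126625491, minus strand) encodes a small stress-induced chromatin protein. It was already well expressed in the control-labelled libraries, with 1457, 1319 and 1116 against 4201, 5801 and 6073 in the mutant-labelled ones. The rise was 2.04 log2 units (SE 0.16, adjusted p = 5.57e-05), the smallest among the 8 genes that passed.

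*Ddit4* (GSMG0004130, chr10:59949675-59951770, minus strand) encodes REDD1, another inhibitor of mTORC1, which also responds to hypoxia and glucocorticoids. It had 1900, 1290 and 1133 in the control-labelled and 2212, 2709 and 1806 in the mutant-labelled libraries. It is the gene of the 10 whose groups overlapped, since control 1 exceeded mutant 3. The log2 fold change was 0.65 (SE 0.22, adjusted p = 0.0453). It stayed under 2-fold in all 18 alternative fits, where its adjusted p ran from 0.0124 to 0.144.

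Both secreted hormones rose from low levels. *Gdf15* (GSMG0038558, chr8:70629391-70632458, minus strand), whose product reduces appetite through a brainstem receptor, had 13.3, 35.9 and 21.5 in the control-labelled and 2592, 2566 and 1666 in the mutant-labelled libraries. Mutant 3 was the lowest of its group and still far above every control. The ratio of means was 96.4, a rise of 6.61 log2 units (SE 0.36, adjusted p = 9.69e-06). *Fgf21* (GSMG0035914, chr7:45613886-45615490, minus strand), a metabolic hormone best known from liver, had 0 reads in all 3 control-labelled libraries and 49.5, 110 and 60.3 in the mutant-labelled ones. Against a floor of 3 reads in each control-labelled library, which covers counting error only, the mutant-labelled mean was at least 22.1-fold higher. The fitted log2 change was 6.13 (SE 0.72, adjusted p = 0.000377), and it moved between 2.99 and 9.43 with the pseudocount and is no bound.

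**Figure D2:**
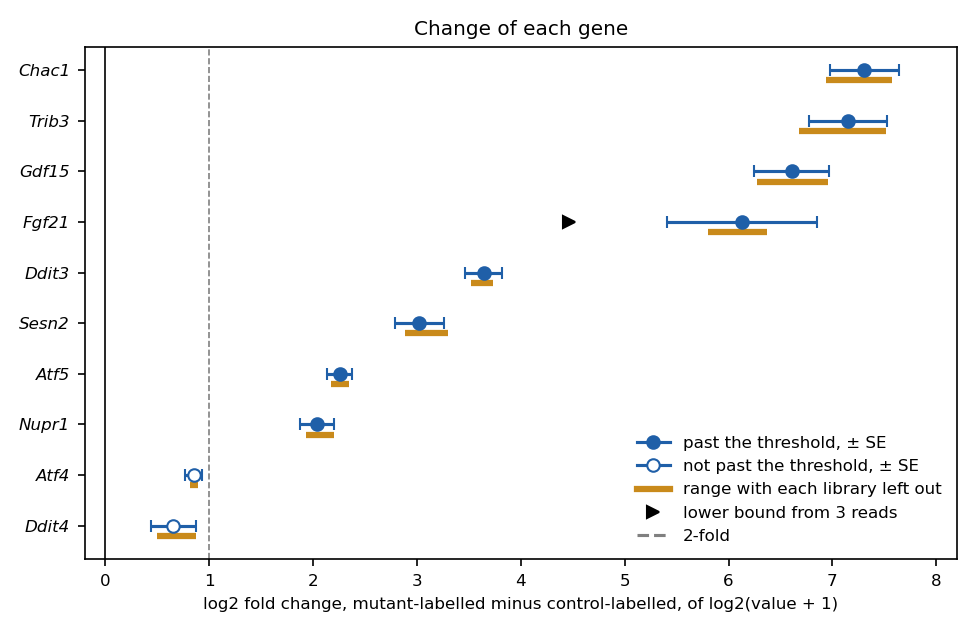
Log2 fold change of each of the 10 genes (x axis, mutant-labelled minus control-labelled, of log2(value + 1)), with the SE as whiskers, the range over the 6 fits that each leave out a library as an orange bar, and the lower bound of *Fgf21* as a black triangle. *Atf4* at 0.85 and *Ddit4* at 0.65 (open circles) lie left of the dashed 2-fold line, and the other 8 genes run from *Nupr1* at 2.04 to *Chac1* at 7.31.

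Levels between genes were compared per kilobase of merged exons (GENCODE vM21), a length that may differ from the regions the authors counted. In the control-labelled libraries the mean level per kilobase fell in the order *Atf4* (7867), *Ddit4* (821), *Atf5* (550), *Nupr1* (516), *Ddit3* (74.4), *Sesn2* (67.0), *Trib3* (37.6), *Chac1* (12.8), *Gdf15* (12.7) and *Fgf21* (0). *Atf4* and *Ddit4* each stood apart from the next gene in this order. *Atf5* overlapped *Nupr1*, and from *Ddit3* down to *Gdf15* each gene overlapped its neighbour over the 3 libraries. In the mutant-labelled libraries the order was *Atf4* (14202), *Trib3* (4913), *Atf5* (2629), *Nupr1* (2131), *Chac1* (2013), *Ddit4* (1278), *Gdf15* (1228), *Ddit3* (942), *Sesn2* (528) and *Fgf21* (77.0). Here *Atf5*, *Nupr1* and *Chac1* overlapped in turn, as did *Ddit4*, *Gdf15* and *Ddit3*, while *Atf4*, *Trib3*, *Sesn2* and *Fgf21* each stood apart from their neighbours. *Trib3* thus moved from rank 7 to rank 2 in level per kilobase, and *Ddit4* from rank 2 to rank 6.

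Within the mutant-labelled group, the highest library was 1.25 to 1.56 times the lowest for 7 of the 8 genes that rose, and 2.22 times for *Fgf21*. The genes did not share a single highest library. Mutant 1 was the highest for 4 of the 10 genes (*Atf5*, *Chac1*, *Sesn2* and *Gdf15*), mutant 2 for 2 (*Fgf21* and *Ddit4*) and mutant 3 for 4 (*Atf4*, *Ddit3*, *Trib3* and *Nupr1*). Mutant 2 was the lowest for 5 of the 10.

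Markers of other cells moved between the groups as well. Summed skeletal muscle markers were 7640 to 38164 in the control-labelled and 50158 to 358543 in the mutant-labelled libraries, with 9 of 12 markers higher. In control 1 and mutant 2, whose muscle sums were 38164 and 50158, *Trib3* stood at 82.2 and 8396, *Chac1* at 28.9 and 2679, *Ddit3* at 113 and 1426, and *Gdf15* at 13.3 and 2566. Leaving out mutant 3, which had the highest muscle sum, kept all 8 genes past the threshold. Adipocyte markers summed to 5412 to 12424 in the control-labelled libraries and to 3209, 26664 and 4350 in mutants 1 to 3, with 0 of 8 past the threshold by limma, edgeR or DESeq2 and 0 at an unadjusted p under 0.05. *Fgf21* was also highest in mutant 2, at 110, and stood at 49.5 in mutant 1 and 60.3 in mutant 3, whose adipocyte sums lay below that of every control-labelled library. T and NK cell markers summed to 112 to 217 in the control-labelled and 417 to 570 in the mutant-labelled libraries, with 5 of the 7 tested higher and *Cd3d*, *Cd8a* and *Ncr1* at 0 in every control-labelled library. Of these 5, *Cd8a*, *Ncr1* and *Nkg7* passed the filter only through the mutant-labelled group, which fixed their direction. Erythroid markers summed to 44287 to 62634 in the control-labelled and 4126 to 12716 in the mutant-labelled libraries, with 5 of 6 lower. Fibroblast markers were lower for 3 of 7 by limma and 2 by edgeR and DESeq2 (sums of 2493724 to 2896888 and 1021020 to 1493923), perineurial markers for 1 of 5 (16623 to 20039 and 13690 to 15942), and endothelial markers were higher for 1 of 7 (13316 to 20398 and 19695 to 25980). Macrophage markers overlapped in their sums (21304 to 26773 and 21471 to 24984), with 1 of 10 higher and 3 lower, as did neutrophil markers (37.8 to 199 and 82.1 to 541), where 0 of 5 tested passed by limma or edgeR, 1 by DESeq2, and 0 had an unadjusted limma p under 0.05. The part of these cells in the change of the 10 genes was not tested.

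**Figure D3:**
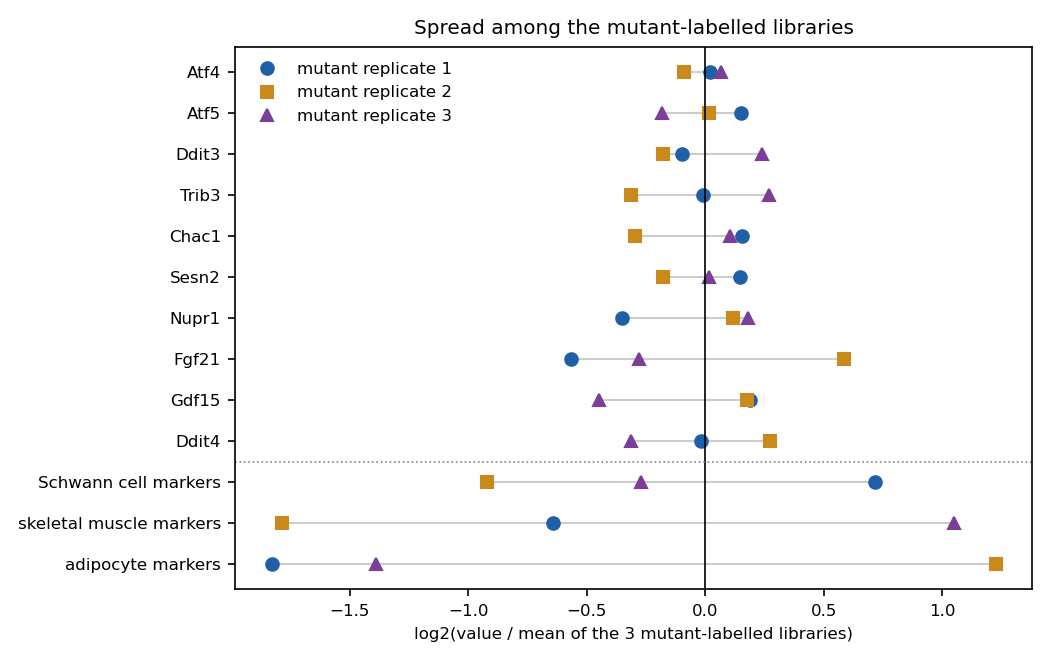
Log2 of the value in each mutant-labelled library over the mean of the 3 (x axis) for the 10 genes and, under the dotted line, for the summed SC, skeletal muscle and adipocyte markers. The genes spread less than any of the 3 marker sums, and the widest gene, *Fgf21*, runs from 49.5 in mutant 1 to 110 in mutant 2.

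Some of the 10 genes share their position with other genes of the table, and the sources used here do not give whether the counting used strand. An unnamed gene on the opposite strand covers all of *Trib3* and had a mean of 2.75 in the control-labelled and 232 in the mutant-labelled libraries, so reads of the 2 cannot be told apart without strand. *Chac1* lies within the span of *Spint1* and *Gdf15* within that of *Pik3r2*, both on the same strand, and these fell by 2.44 and 1.08 log2 units. *Pik3r2* did not pass without mutant 3 (-0.95), with the same total (-0.92) or with the same 75th percentile (-0.99). *Atf5* shares 573 bases with the opposite-strand gene *Nup62*, and *Ddit3* shares 68 bases with the opposite-strand *Mars*. *Sesn2* overlaps 3 unnamed genes with at most 103 in any library.

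Upstream of *Atf4*, the 13 genes that set the phosphorylation of eIF2alpha or its use counted 2 higher past the threshold and 0 lower, with a median of 0.12. By the same rule 13.9% of all genes tested were higher and 10.4% lower. Irrespective of size, 5 of the 13 were higher and 3 lower with an adjusted p at or under 0.05. Of all genes tested, 35% had such a p in either direction. *Eif2ak2*, which encodes the double-stranded RNA sensor kinase PKR and is itself an interferon-induced gene, had 238, 253 and 138 in the control-labelled and 1674, 1349 and 1523 in the mutant-labelled libraries. It rose by 2.89 log2 units (SE 0.24, adjusted p = 6.53e-05). *Eif2s1*, which encodes eIF2alpha, had a log2 fold change of 1.02 (SE 0.10, adjusted p = 0.000143), which dropped to 0.96 without control 3 and 0.98 without mutant 3 and so left 1 gene past the threshold. The other kinases did not reach a 2-fold change. *Eif2ak1* (HRI, the heme-regulated kinase) stood at -0.33 (adjusted p = 0.023) and *Eif2ak3* (PERK, the kinase of the endoplasmic reticulum) at -0.55 (adjusted p = 0.0094). Every mutant-labelled value of these 2 kinases lay below every control-labelled value. *Eif2ak4* (GCN2, which senses uncharged tRNA) stood at -0.22 (adjusted p = 0.27). The phosphatase subunits that reverse the signal stood at 0.12 for *Ppp1r15a*, 0.32 for *Ppp1r15b* and -0.49 for *Ppp1ca* (adjusted p = 0.57, 0.014 and 0.0088). The subunits of eIF2B, the exchange factor that phosphorylated eIF2alpha inhibits, stood at 0.28, 0.32, 0.75, 0.11 and 0.12 for *Eif2b1* to *Eif2b5*. Their adjusted p-values were 0.063, 0.047, 0.0011, 0.42 and 0.31.

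The bZIP partners and competitors of ATF4 counted 8 of 17 higher and 0 lower, with a median of 0.82. *Batf2* had the largest rise, with 54.4, 190 and 15.2 in the control-labelled and 2029, 1394 and 1705 in the mutant-labelled libraries (4.93 log2 units, SE 0.74, adjusted p = 0.0013). *Batf3*, like *Batf2* a factor known mainly from immune cells, rose by 3.14 (SE 0.26, adjusted p = 5.82e-05). The others that rose were *Atf3*, *Batf*, *Cebpb*, *Cebpd*, *Cebpg* and *Nfe2l1*, with log2 fold changes between 1.01 for *Nfe2l1* and 3.01 for *Atf3*. *Nfe2l1* stood under 2-fold without control 3, mutant 1 or mutant 3 (0.981 to 0.996), and *Batf*, with an adjusted p of 0.0544 in limma, did not pass without mutant 1 or mutant 2 or with eBayes without trend.

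The metabolic targets of ATF4 were described as 3 groups. Of 14 amino acid synthesis enzymes 7 rose and 0 fell, with a median log2 fold change of 0.96. *Asns*, asparagine synthetase, had 469, 623 and 579 in the control-labelled and 18215, 15660 and 20548 in the mutant-labelled libraries, a rise of 5.02 (SE 0.14, adjusted p = 8.72e-07). *Aldh1l2*, a mitochondrial folate enzyme, rose by 4.79 (SE 0.14, adjusted p = 8.72e-07). The 3 serine synthesis enzymes did not pass, with 0.23 for *Phgdh*, -0.02 for *Psat1* and 0.63 for *Psph*, whose groups did not overlap (adjusted p = 0.0045). Of 12 amino acid transporters 8 rose and 0 fell, with a median of 1.62. *Slc7a11*, the cystine importer that supplies glutathione synthesis, had 15.5, 0 and 2.53 against 267, 141 and 446 (6.05 log2 units, SE 0.97, adjusted p = 0.0019), and *Slc7a3*, a transporter of cationic amino acids, rose by 3.31 (SE 0.28, adjusted p = 7.29e-05). *Slc7a11* passed the filter on low values only through the mutant-labelled group, so its direction was fixed by the filter. Irrespective of size, 9 of the 12 transporters were higher and 1 lower with an adjusted p at or under 0.05. The 1 lower was *Slc38a2* (-0.77, adjusted p = 0.00025), with 21033, 22381 and 20946 in the control-labelled and 13323, 11948 and 12477 in the mutant-labelled libraries. Of 20 cytosolic aminoacyl-tRNA synthetases 10 rose and 0 fell, with a median of 1.02, led by *Wars* (1.81, SE 0.15, adjusted p = 6.75e-05) and *Nars* (1.56, SE 0.10, adjusted p = 1.73e-05). Irrespective of size, 19 of the 20 were higher with an adjusted p at or under 0.05, and *Qars* was lower. Of all genes tested, 35% had such a p in either direction.

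Among 13 other targets of ATF4 and CHOP, 6 rose and 1 fell, with a median log2 fold change of 0.85. *Stc2*, a secreted glycoprotein, had 72.2, 26.5 and 63.4 in the control-labelled and 2267, 1965 and 2390 in the mutant-labelled libraries (5.44, SE 0.35, adjusted p = 1.91e-05). The death receptor gene *Tnfrsf10b* rose by 2.004 (SE 0.34, adjusted p = 0.00262), whereas *Bcl2l11*, which encodes the pro-apoptotic protein BIM, fell by 1.19 (SE 0.13, adjusted p = 0.000279). Neighbouring stress programs gave other counts. Of 16 chaperone and degradation genes driven mainly by ATF6 and XBP1, 0 passed the threshold by limma, edgeR or DESeq2, and 9 had an unadjusted p at or under 0.05, as did 45% of all genes tested. The median was -0.04. Their values ran from -0.60 for *Syvn1* to 0.63 for *Hspa5*, which encodes the chaperone BiP. For 7 of the 16 every mutant-labelled value lay below every control-labelled value, and for 3 above. Among all genes tested these shares were 23.3% and 25.9%. Of 8 mitochondrial stress chaperones and proteases 1 rose, where 13.9% of all genes tested did. It was *Hspa9* (1.86, SE 0.11, adjusted p = 1.11e-05), and the median of this list was 0.43. The count was 2 without mutant 2 or with the same 75th percentile, and 3 with the same total.

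**Figure D4:**
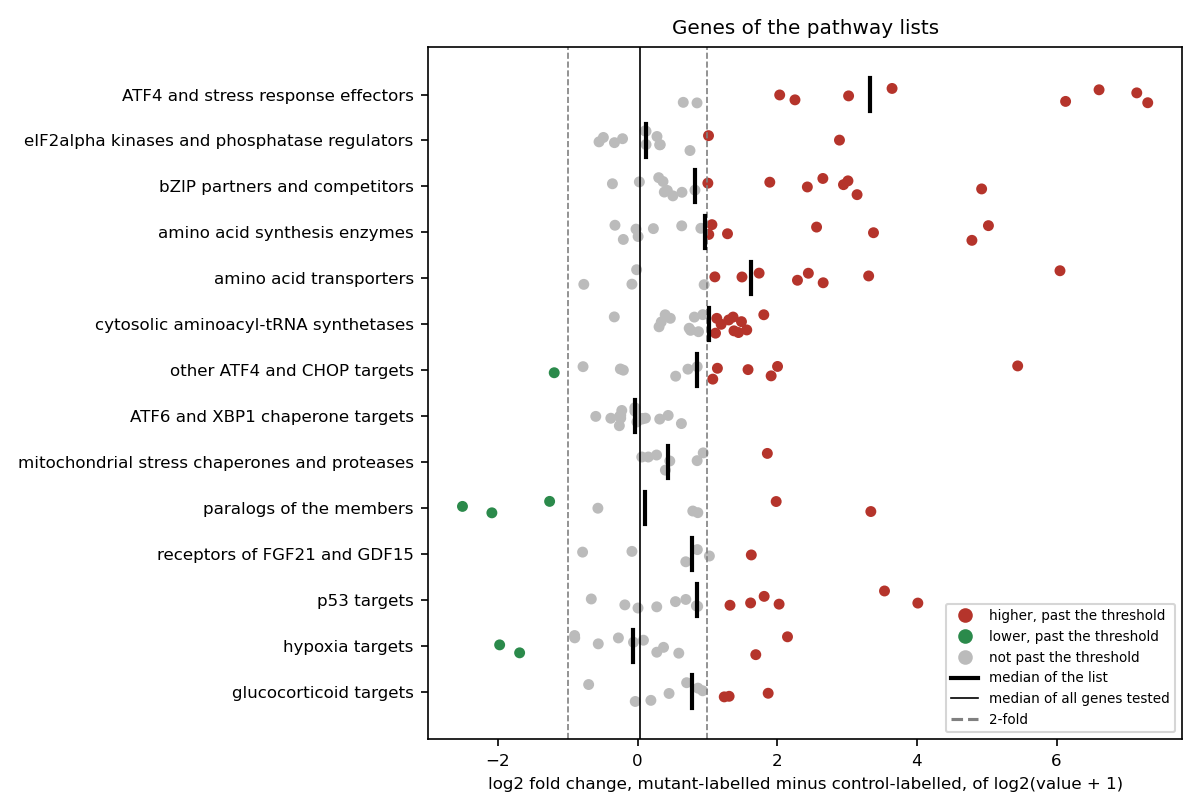
Log2 fold change (x axis, mutant-labelled minus control-labelled, of log2(value + 1)) of every tested gene of the 10 and of 13 lists of the pathway and of other regulators, with genes past the threshold in red (higher) or green (lower), list medians as thick bars and the 2-fold limits dashed. Medians run from -0.06 for hypoxia targets to 3.33 for the 10 genes, against 0.03 for all genes tested.

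The promoter windows of these lists were searched for TGATGNAA as well. Of 131 listed genes with a window, some with several start sites, 14 held it, of which 10 rose, 0 fell and 4 did not pass. Beside these counts stand 3.97% of all windows with TGATGNAA and 13.9% of all genes tested that were higher. Among listed genes with or without a window, 56 of 164 rose. Of the 14 genes, those that rose were *Aars*, *Asns*, *Atf3*, *Gars*, *Herpud1*, *Iars*, *Slc1a4*, *Slc7a11*, *Tars* and *Yars*, and those that did not pass were *Got1*, *Jdp2*, *Pycr1* and *Vldlr*. The direction of *Slc7a11* was fixed by the filter, which it passed only through the mutant-labelled group. Windows of *Asns* (chr6:7693215-7693242, minus strand, match at -23), of *Atf3* (chr1:191183426-191183453, minus strand, at -110) and of *Pycr1* (chr11:120643834-120643861, minus strand, at -103) are set beside those of *Chac1*, *Fgf21*, *Nupr1* and *Trib3*, because the first 2 genes rose and *Pycr1*, with a log2 fold change of -0.32, did not pass although it holds the full TGATGCAA. The match is in capitals, along the gene's own strand for *Asns* and *Pycr1* and along the opposite strand for *Atf3*.
Asns: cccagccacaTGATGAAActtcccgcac
Atf3: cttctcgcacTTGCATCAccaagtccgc
Pycr1: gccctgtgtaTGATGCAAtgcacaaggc

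Some of the 10 genes answer to other regulators, and their paralogs and receptors were read beside them. Of 8 paralogs tested, 2 rose and 3 fell, but *Fgf23* passed the filter only through the mutant-labelled group and *Nupr1l* only through the control-labelled group, which fixed their directions. *Trib1* rose by 1.98 (SE 0.15, adjusted p = 4.12e-05) as did *Trib3*, whereas *Trib2* fell by 1.26 (SE 0.09, adjusted p = 4.12e-05). *Sesn1*, a paralog of *Sesn2*, had 4777, 4326 and 3974 against 1178, 919 and 987 and fell by 2.09 (SE 0.13, adjusted p = 1.6e-05). *Nupr1l*, the paralog of *Nupr1*, fell by 2.51 (SE 0.75, adjusted p = 0.0316) from values of 12.2 to 25.5 to values of 1.45 to 3.96. *Fgf23*, another endocrine FGF, overlapped between the groups with 0, 17.0 and 0 against 14.5, 32.8 and 34.6. Its call (3.34, SE 1.21, adjusted p = 0.0619) was absent from edgeR and DESeq2 and without control 1, control 3, mutant 2 or mutant 3, which left 1 paralog higher. Of the receptors, *Gfral*, through which GDF15 acts, had 0 reads in all 6 libraries. *Klb*, the co-receptor of FGF21, had 37.8, 0 and 22.8 in the control-labelled and 4.36, 209 and 5.93 in the mutant-labelled libraries, with its high value in the library of high adipocyte markers. *Fgfr4* was the receptor gene of 6 tested that rose (1.63, SE 0.40, adjusted p = 0.014), and 2 passed without control 1, control 3 or mutant 1, or with the same total. Of all genes tested, 13.9% rose and 10.4% fell by the same rule.

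Targets of p53, which also drives *Sesn2* and *Gdf15*, counted 6 of 14 higher and 0 lower, with a median of 0.85. The BH3-only gene *Pmaip1*, which ATF4 can drive too, rose by 4.01 (SE 0.28, adjusted p = 2.88e-05), and the TNF receptor gene *Eda2r* by 3.54 (SE 0.43, adjusted p = 0.000455). Irrespective of size, 10 of the 14 were higher and 1 lower with an adjusted p at or under 0.05. The 1 lower was *Ei24* (-0.66, adjusted p = 0.0013), and *Cdkn1a* stood at 0.006 (adjusted p = 0.97). Hypoxia targets, read beside *Ddit4*, counted 2 of 13 higher and 2 lower, with a median of -0.06. Of all genes tested, 13.9% were higher and 10.4% lower, so these 2 counts lie near the shares of all genes. The hypoxia targets higher were the secreted factors *Vegfa* (2.15, SE 0.14, adjusted p = 1.82e-05) and *Adm* (1.69, SE 0.27, adjusted p = 0.00168). Those lower were *Ndrg1*, a gene of myelinating SCs (-1.98, SE 0.18, adjusted p = 9.04e-05), and *Ankrd37* (-1.69, SE 0.53, adjusted p = 0.0373). Glucocorticoid targets counted 3 of 10 higher and 0 lower, with a median of 0.78, and 5 were higher without control 3 or with the same total. The largest rises were those of *Zbtb16* (1.87, SE 0.39, adjusted p = 0.00651) and *Pdk4* (1.31, SE 0.30, adjusted p = 0.00969). Over all 13 lists, 56 of 164 tested genes were higher and 6 lower.

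The genes with the most similar profiles were sought for *Atf4*, *Ddit3* and *Chac1* among 16648 tested genes with a symbol, by the Euclidean distance between profiles of log2(value + 1) over the 6 libraries, each centred on its own control mean. Nearest to *Atf4* were *Wdr36* (distance 0.073) and *Nop56* (0.086), both of ribosome assembly, and *Etf1* (0.101), the translation release factor, with log2 fold changes of 0.86, 0.82 and 0.87. Nearest to *Ddit3* were *Bcl2l14* (0.309), which had 0 reads in all control-labelled libraries and at most 11.9 in the others, so that its distance is set by the pseudocount, and the TWEAK receptor gene *Tnfrsf12a* (0.338, with a log2 fold change of 3.48). Nearest to *Chac1* was *Trib3* (0.753). The entry Gm8979 // Gm8989 (0.975), whose reads may be shared between near-identical copies, was also among its 3 nearest, with 0 reads in all control-labelled libraries and a mean of 150 in the mutant-labelled ones, so that its distance too depends on the pseudocount. These distances are a description of 6 libraries in 2 groups.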

How the data were processed

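The authors prepared oriented cDNA from poly-A+ RNA, mapped the reads to mm10 with STAR 2.4.0, counted them per gene with FAST DB annotation and deposited a single table whose values are a signal, the count of a gene divided by the library's DESeq size factor. In units of 1 read, 100% of the values were whole (within 0.02 read), and the reads recovered this way went into edgeR and DESeq2 as alternatives. Groups and replicate numbers come from the labels. The 10 genes, the lists and the tests were chosen with earlier results of these data known.

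limma (lmFit, eBayes with trend) was fitted on log2(value + 1) as mutant minus control, with the filter, threshold and adjustment given above. The fit was tested on simulated data. Genes were named by rule: all 10, every gene of the eIF2alpha list, up to 2 rises and 2 falls of largest size per list among those past the threshold, the 3 nearest profiles of *Atf4*, *Ddit3* and *Chac1*, and *Adar*. Other listed genes (*Phgdh*, *Psat1*, *Psph*, *Slc38a2*, *Qars*, *Syvn1*, *Hspa5*, *Gfral*, *Klb*, *Trib2*, *Aldh18a1*, *Cdkn1a*, *Ei24*, markers, genes with a motif or a shared position and the bZIP genes that rose) were named after their values were seen. Alternatives were 12 other settings and 6 fits that each leave out a library. *Dele1* of the mitochondrial list was not analysed here. Some single genes are not reported here. Lists were described by counts and medians, with no set test. Software was Python 3.11.15 (pandas 2.3.3, numpy 2.4.6, matplotlib 3.10.9) and R 4.3.3 (DESeq2 1.42.0, edgeR 4.0.16, limma 3.58.1).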

Additional observations from a re-analysis of the deposited data

How the results depend on the processing

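Of the 10 genes, 8 were higher and 0 lower in all 18 alternatives, except that 9 were higher after rescaling to the same total, where *Atf4* passed. Over the 13 lists, 53 to 69 genes were higher and 5 to 7 lower, against 56 and 6. Leaving out each library in turn gave 8 higher genes among the 10 throughout, and 53 to 58 higher and 6 to 7 lower over the lists. Rescaling moved the median log2 fold change of all genes from 0.03 to 0.20 (same total) or 0.13 (same 75th percentile), and the share of higher among all calls from 57.3% to 66.4% or 62.5%. Same-numbered libraries did not deviate together (correlations of -0.062, -0.055 and 0.009), so the numbers were not taken as pairs. With a replicate block in the fit, 8 of the 10 genes and 56 of the listed genes were higher and 6 lower, and 0 calls changed among the 177 genes followed (the 10, the listed genes, *Adar*, *Spint1* and *Pik3r2*). Among these genes 0 directions reversed. A call was lost in at least 1 alternative by 6 genes: *Eif2s1* (2 alternatives), *Aldh18a1*, *Nfe2l1* and *Pik3r2* (3 each), *Batf* (4) and *Fgf23* (7). A call was gained by 16, among them *Atf4* and *Got1*. Of the list counts, 19 moved by over 1.5 times, all in lists with at most 3 higher genes. The cause of these moves was not tested. With 0 reads in the control-labelled libraries, *Fgf21* has only a lower bound for its fold.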
